A study of Mus musculus with 6 samples.

Results

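The clusters described here are the 831 piC clusters with 200 or more small RNA reads in mouse pachytene spermatocytes, male germ cells in the pachytene stage of meiotic prophase. They are genomic intervals whose name begins with piC_ in the deposited tables and whose reads, summed over 4 small RNA libraries with an absent cluster taken as 0, reached 200. They are 31.0% of the 2684 piC clusters and part of 4944 clusters in all, the other 2260 of which carry a number as their name. The reads themselves thus chose the set, so its abundance is given as a description. The sources used here do not say what the piC class stands for or what sets it apart from the numbered class.

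PIWI-interacting RNAs (piRNAs) are small RNAs bound by PIWI proteins, in these cells mainly MIWI and MILI. In pachytene spermatocytes most of them are cut from long single-stranded transcripts of discrete genomic regions, the piRNA clusters, many of which hold few transposon sequences. They are required for the formation of sperm.

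The study compared wild type (WT) with mutants of Alkbh1, which encodes an AlkB family dioxygenase, and Tzfp, which encodes a BTB zinc finger protein. Small RNA came from 2 WT libraries, 1 library of Alkbh1-/- spermatocytes and 1 of TzfpGTi/GTi spermatocytes. The Alkbh1-/- mice carry a deletion of exon 6, in a line whose heterozygotes were crossed back to C57/BL6. The TzfpGTi/GTi mice descend from a gene-trap embryonic stem cell clone with a splice acceptor before exon 1. Age, the strain of the WT and Tzfp mice, and the animals behind each library are not given in the labels. The p-values thus rest only on how far the WT libraries spread, in the cluster and across other clusters, which can be technical. The small RNA tables hold no genes and the mRNA table was not used, so the labelled cell type was not checked against markers. Reads in all clusters summed to between 7306115 (Alkbh1-/-) and 15319520 (WT replicate 2).

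All 831 clusters had reads in each of the 4 libraries. Together they held 642989 and 995929 reads in the WT pair (replicates 1 and 2, in that order throughout), 490075 in Alkbh1-/- and 944679 in TzfpGTi/GTi. As a share of all cluster reads this was 6.31% (95% Wilson interval 6.29 to 6.32) and 6.50% (6.49 to 6.51) in WT. It was 6.71% (6.69 to 6.73) in Alkbh1-/- and 6.40% (6.39 to 6.41) in TzfpGTi/GTi. The Tzfp library lay between the WT libraries and the Alkbh1-/- library above both. The overlapping clusters piC_1397 and piC_2849 on chromosome 17 can hold the same reads. Each took 0.250% of cluster reads in Alkbh1-/-, against 0.0450% and 0.0213% in the WT pair. The place of Alkbh1-/- above both WT libraries rests on these clusters. The Wilson intervals hold the counting error of reads alone. They can be too narrow for molecules, as amplified reads with no molecular identifier may copy the same molecule. The 1853 piC clusters under 200 reads held 0.220% to 0.292% of cluster reads per library, so the 831 held 96.2% of the reads of the piC class.

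Few clusters carried most of these reads. The median cluster had 475 reads summed over the libraries, 612 had under 1000, 189 had from 1000 to 10000 and 30 had 10000 or more. The 10 with the most summed reads held 59.6% of the reads of the set, the first 50 held 79.6% and the first 100 held 85.7%. Overlapping clusters count separately in these figures. The top 2, piC_1566 and piC_28, held 26.4% and can hold the same reads. Just inside the threshold lay piC_194 (200 reads), piC_114 (200.2) and piC_592 (200.8). Just outside lay piC_1302 (198.9), piC_1477 (198.3) and piC_603 (197.8).

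**Figure D1:**
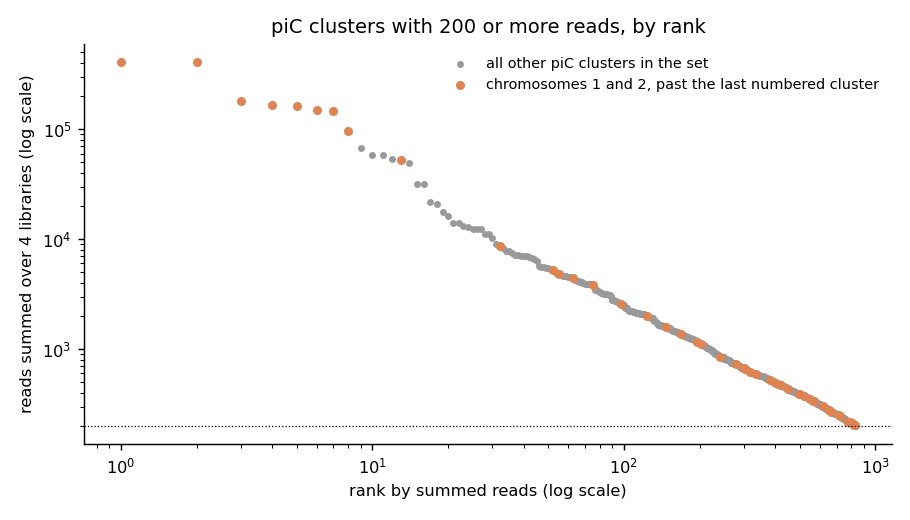
Reads of each of the 831 piC clusters summed over the 4 libraries, against rank, both on log axes; the dotted line is the threshold of 200 reads. Orange points are the 54 clusters on chromosomes 1 and 2 past the last numbered cluster of that chromosome, and the 8 clusters at the top are all among them.

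The most abundant pair lay on chromosome 1. piC_1566 (mm9 chromosome 1, 94851770 to 94911288) had 84321 and 140800 reads in the WT pair, 58114 in Alkbh1-/- and 123300 in TzfpGTi/GTi. That was 0.827% (0.822 to 0.833) and 0.919% (0.914 to 0.924) of all cluster reads in the WT pair, 0.795% (0.789 to 0.802) in Alkbh1-/- and 0.835% (0.831 to 0.840) in TzfpGTi/GTi. piC_28 (94883063 to 94902651) lies wholly inside it, fills 32.9% of its length and had 99.4% as many reads. Nearly all reads of the longer interval can therefore be the reads of the shorter, which had the most reads per length of the set, 20623 summed reads per kb. The next highest by length was piC_1563 (chromosome 1, 93299269 to 93309840), with 13695 summed reads per kb.

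A group of 4 clusters stood close together on chromosome 2. From 150965623 to 151258128 followed piC_154, piC_1656, piC_155 and piC_1657, with 89346, 32080 and 40004 bp between neighbours, and they held 21.4% of the reads of the set. Their read counts were alike in each library although they do not overlap. WT replicate 1 had 33036 reads in piC_154, 36478 in piC_1656, 39216 in piC_155 and 36491 in piC_1657. In Alkbh1-/- the same clusters had 15758, 18087, 19989 and 17877 reads. Reads that match more than 1 of these 4 clusters could not be followed in the tables, so their part in this likeness was not tested.

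Fractional counts were common in the set. Of the 744 clusters under 1000 reads in every library, where the file keeps enough decimals, 51 had whole values (within 0.001) in all 4 libraries. How the fractions arose is not stated in the sources; dividing a read among several matching places is one way to obtain them. Among numbered clusters chosen by the same limits, 1 of 62 was whole in all 4 libraries.

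Positions of the piC clusters did not overlap the numbered clusters at all. Of the 831, 0 shared a base with any of the 2260 numbered clusters, and neither did any of the other 1853 piC clusters. The median distance to the nearest numbered cluster was 444709 bp, 125 clusters lay within 100000 bp of one and 2 within 1000 bp. The nearest were piC_2361, 101 bp from numbered cluster 1450, and piC_1505, 811 bp from cluster 2457.

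The largest members lay where the tables used here have no numbered cluster. On chromosome 1 the last numbered cluster, 106, ended at 89644300, while the last piC cluster ended at 196928809, 107 Mb further on. On chromosome 2 cluster 237 ended at 125467000, and piC clusters went on for 56.1 Mb. The numbers run on without a break, from 106 to 107 at the change from chromosome 1 to 2 and from 237 to 238 at the next. Past those ends lay 34 clusters of the set on chromosome 1 and 20 on chromosome 2. These 54 clusters (6.50% of the 831) held 58.9% of the reads of the set, 34.0% on chromosome 1 and 24.9% on chromosome 2, and included the 8 most abundant. The 58.9% and 34.0% count both piC_1566 and piC_28, which had 26.4% of the reads of the set and can hold the same reads. The median of the 54 was 559 summed reads and 32.3 per kb, against 472 and 19.2 for the other 777, so most of the 54 were not unusually large. Chromosome 16 had a like stretch without abundant members. Its last numbered cluster ended at 75655000 and piC clusters went on for 22.6 Mb, where 4 members held 1450 summed reads.

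**Figure D2:**
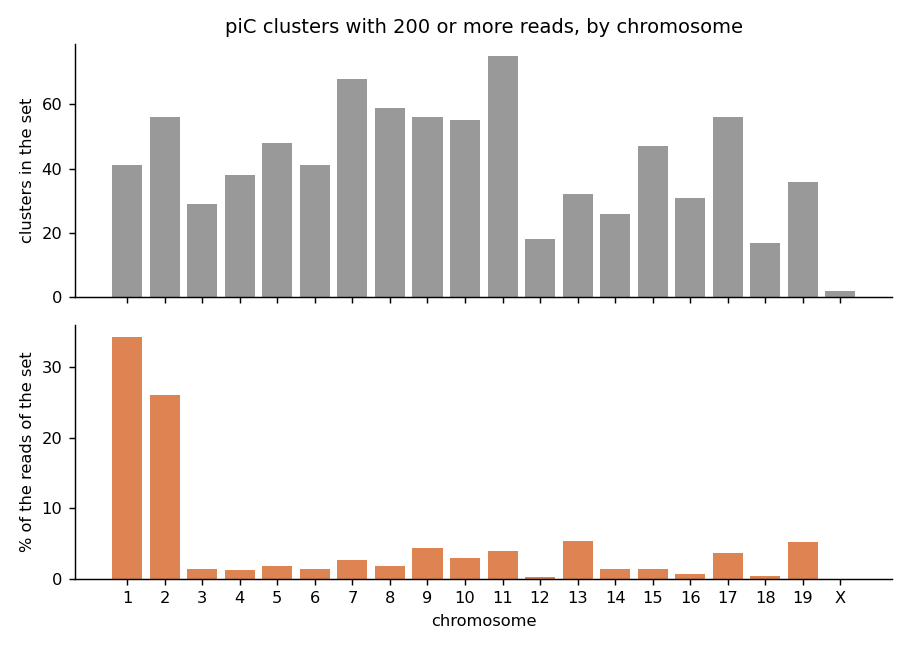
Number of piC clusters with 200 or more reads on each chromosome (upper bars) and their percent of the summed reads of the set (lower bars). Chromosomes 1 and 2 hold 41 and 56 of the 831 clusters and 34.2% and 26.0% of the reads. On chromosome 1 the bar counts both piC_1566 and piC_28, which can hold the same reads.

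Over the chromosomes, chromosome 11 held the most members (75) and chromosome 7 had 68. Of the piC clusters of a chromosome, the share that reached 200 reads went from 18.6% on chromosome 12 to 42.6% on chromosome 10 among the autosomes. The X chromosome stood lower, with 2 of 33 (6.06%), and 0.0395% of the reads of the set. No piC cluster lay on the Y chromosome.

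Numbers in the piC names follow the genome in 2 runs. Names from 1 to 1534 run along the chromosomes from 1 to X, and names from 1536 to 2992 start again at chromosome 1. The first run gave 435 members of 1382 piC clusters (31.5%) and the second 396 of 1302 (30.4%). Of the 269 overlapping pairs of piC clusters, 0 joined clusters of the same run. The sources used here do not say what the runs stand for. Their shares of cluster reads were close in every library, as in WT replicate 1 with 3.11% for the first and 3.20% for the second.

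Overlap between runs tied 198 of the 831 clusters into 99 pairs, and 46 of them lay wholly inside their partner. Counted as separate places, the 831 clusters were 732 loci, each with at most 2 of them. In 15 pairs the reads agreed within 5% in every library and in 74 within 2-fold. Such pairs are not independent observations. With every cluster that overlaps one with more reads left out, of both classes, the share of the set was 5.32% and 5.43% of cluster reads in the WT pair, 5.53% in Alkbh1-/- and 5.39% in TzfpGTi/GTi. These shares leave out piC_1397 but still include piC_2849.

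In length the 831 clusters went from 457 to 225849 bp with a median of 29045 bp (quartiles 17196 and 47554). The 159 numbered clusters with 200 or more reads had a median of 37200 bp and a narrower range, from 4226 to 131400 bp. Reads per length set the classes further apart. The median was 19.7 summed reads per kb in the piC set against 640 in those numbered clusters. Length and summed reads were weakly related across the 831 (Spearman 0.11, a description across clusters that share libraries and, in part, reads).

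The shortest member was piC_1153 on chromosome 13 (96094679 to 96095135), 457 bp with 288 and 480 reads in the WT pair, 240 in Alkbh1-/- and 339 in TzfpGTi/GTi. It was followed by piC_2984 on the X chromosome (471 bp, 368 summed reads) and piC_359 on chromosome 5 (958 bp, 421 summed reads). At the other end stood piC_2755 on chromosome 16 (225849 bp, 1009 summed reads), piC_559 on chromosome 7 (184106 bp, 335) and piC_2272 on chromosome 9 (154033 bp, 1117). piC_559 had the fewest reads per length of the set, 1.82 per kb.

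The WT pair gives the only replicate error. After scaling by TMM, which sets libraries level on the bulk of their clusters, the log2 ratio of WT replicate 2 to replicate 1 over the 831 had a median of 0.11 and an SD of 0.55. The SD over all 2209 clusters tested, those with 40 or more summed reads, was 0.71. WT libraries were more than 2-fold apart in 51 members (6.14%), against 12.5% of all clusters tested. The choice by abundance favours clusters with less counting noise, so the smaller spread is a description.

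The members that differed most between the WT libraries went from few to many reads. piC_86 (chromosome 2, 26758570 to 26778886) had 1656 reads in WT replicate 1 and 236.8 in replicate 2, with 1569 in Alkbh1-/- and 431 in TzfpGTi/GTi. After scaling the WT libraries were 9.21-fold apart there. piC_330 on chromosome 4 was 8.24-fold apart, piC_2122 on chromosome 7 6.26-fold, piC_2616 on chromosome 13 6.16-fold and piC_592 on chromosome 7, with 82 and 20.1 reads, 5.38-fold, all higher in replicate 1. In all 10 members with WT more than 4-fold apart, Alkbh1-/- lay nearer WT replicate 1 and TzfpGTi/GTi nearer WT replicate 2. Over the whole set this held less often, for 478 of 831 in Alkbh1-/- and 423 of 831 in TzfpGTi/GTi. The deposited tables of WT replicate 1 and Alkbh1-/- share one naming scheme and the others another. No label gives a batch, and the part of this pairing in the results was not tested.

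The comparison of Alkbh1-/- with WT addressed the clusters that change where Alkbh1 is lost. Of the 831 clusters 4 rose and 0 fell at an adjusted p of 0.05 (edgeR quasi-likelihood test, adjusted over all 2209 clusters tested). The background was 0.272% of tested clusters called higher and 0.0% lower. Those 4 are the members among the 6 clusters called in the whole table. By unadjusted p under 0.05, 162 members (19.5%) differed, 100 higher and 62 lower, against a background of 12.8%. DESeq2's Wald test called 13 members higher and 4 lower, where the background over the 1053 clusters it gave an adjusted p was 1.61% and 0.475%. DESeq2 size factors in edgeR gave 7 and 1, against a background of 0.589% and 0.0453%. In edgeR 0 members were called with no scaling beyond totals, with TMM from numbered clusters, with overlaps counted once or with only WT and Alkbh1-/- in the fit. With 1 Alkbh1-/- library, a difference of that library and of the genotype cannot be told apart.

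Of the called members, those with the highest log2 fold were a pair on chromosome 17 that shares its reads. piC_1397 (39979942 to 39985771, 5830 bp) had 4586 reads in the first WT library and 3264 in the second, 18280 in Alkbh1-/- and 5816 in TzfpGTi/GTi. piC_2849 (39954489 to 39985766) covers 99.9% of it, is 31278 bp long and had the same counts but for 1 read in WT replicate 2. All reads of the longer interval except that one can thus lie within the shorter. In scaled CPM, which relates each count to the TMM-scaled library total, piC_1397 stood at 431 and 233 in WT, 2368 in Alkbh1-/- and 396 in TzfpGTi/GTi. Alkbh1-/- was 5.49-fold and 10.2-fold above the WT libraries, which were 1.85-fold apart, and Tzfp lay between them. The log2 fold was 2.83 ± 0.40 (SE; 1 mutant and 2 WT libraries; edgeR adjusted p = 0.0466). As background knowledge of the mm9 build, not from a file used here, this place on chromosome 17 carries the annotation of Rn45s, the precursor of ribosomal RNA. Whether the reads are fragments of that RNA or piRNAs was not tested.

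The other called members had few reads. piC_1464 (chromosome 19, 4396068 to 4451551) had 56.6 and 57.8 reads in the WT pair, 189.5 in Alkbh1-/- and 62 in TzfpGTi/GTi. Its log2 fold was 2.38 ± 0.33, 4.61-fold and 5.95-fold above the WT libraries (edgeR adjusted p = 0.0466). piC_2196 (chromosome 8, 107821262 to 107836010) had 65.2 and 81.8 reads in the WT pair, 219.5 in Alkbh1-/- and 84.3 in TzfpGTi/GTi. Its log2 fold was 2.25 ± 0.31, 4.64-fold and 4.87-fold above WT (edgeR adjusted p = 0.0466). In both clusters the Tzfp library had nearly the WT level and only Alkbh1-/- stood apart from the other 3 libraries. Neither of them overlaps or adjoins a numbered cluster, the nearest being 1214367 bp from piC_1464 and 498261 bp from piC_2196.

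**Figure D3:**
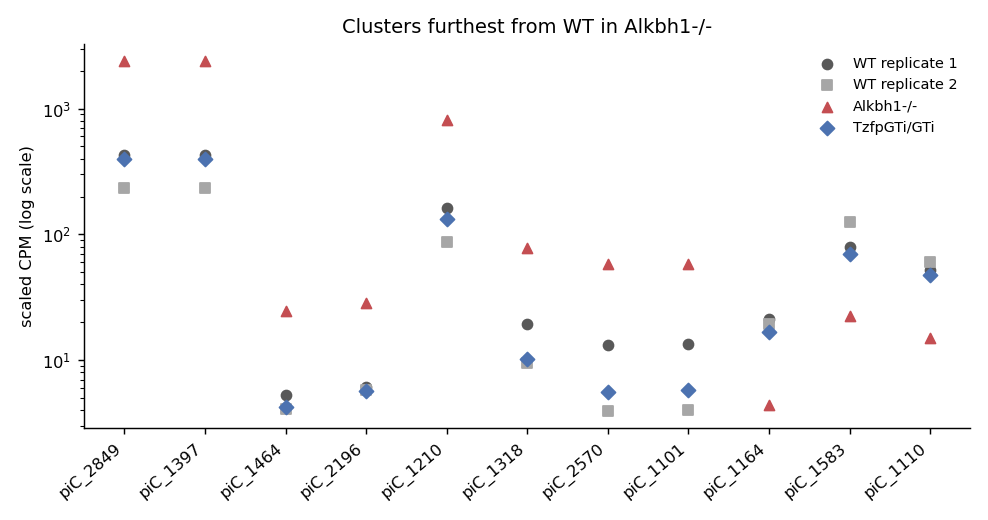
Scaled CPM (log axis) of 11 piC clusters in each library: the 8 at the left include the 4 called in Alkbh1-/-, and the 3 at the right have the lowest Alkbh1-/- folds. Alkbh1-/- (red triangles) lies above both WT libraries in the first 8 and below both in the last 3, while Tzfp (blue) stays near WT.

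Further clusters with high folds did not pass in the edgeR test with TMM. piC_1210 (chromosome 14, 115441554 to 115461711) had 1720 and 1213 reads in the WT pair, 6258 in Alkbh1-/- and 1948 in TzfpGTi/GTi. Its log2 fold was 2.71 ± 0.42 and its edgeR adjusted p 0.0519. Alkbh1-/- stood 5.01-fold and 9.36-fold above the WT libraries. DESeq2's Wald test (adjusted p = 1.01e-06) and edgeR with DESeq2 size factors (adjusted p = 0.0400) called this cluster. On chromosome 13, piC_1101 and piC_2570 overlap by 19204 bp and share nearly all reads, 451 in Alkbh1-/- against 143 and 56.2 in WT for piC_1101. Their log2 folds were 2.76 ± 0.58 and 2.77 ± 0.57, with the WT libraries 3.35-fold and 3.33-fold apart. piC_1318 on chromosome 16 had 207 and 132.7 reads in the WT pair and 599 in Alkbh1-/-, a log2 fold of 2.43 ± 0.43 (adjusted p = 0.0778 in edgeR and 0.000995 in DESeq2's Wald test).

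At the low end, piC_1164 (chromosome 13, 113523137 to 113528798) had 225.5 and 274 reads in the WT pair, 34 in Alkbh1-/- and 248 in TzfpGTi/GTi. The log2 fold was -2.21 ± 0.38 (edgeR adjusted p = 0.0643). piC_1583 on chromosome 1 had 848 and 1772 reads in the WT pair and 174 in Alkbh1-/-, a log2 fold of -2.19 ± 0.45. piC_1110 on chromosome 13 lies within the longer member piC_2578 and had 550 and 840 reads in the WT pair and 115.8 in Alkbh1-/-, a log2 fold of -1.89 ± 0.38. The edgeR adjusted p of piC_1583 and piC_1110 was 0.109 and 0.103. DESeq2's Wald test called piC_1164 (adjusted p = 0.00764), piC_1583 (0.000254) and piC_1110 (0.00230) lower. In each of these 3 the Alkbh1-/- library lay well under both WT libraries, and Tzfp was nearer WT. piC_1492 on chromosome 19 (-1.76), piC_461 on chromosome 5 (-1.74) and piC_710 on chromosome 8 (-1.73) followed with fewer reads.

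The 10 members with the most WT reads all stood below both WT libraries in Alkbh1-/-, without passing the test. The 4 neighbours on chromosome 2 were the lowest of them, from -0.65 ± 0.31 for piC_155 to -0.75 ± 0.32 for piC_154 on the log2 scale. In scaled CPM, piC_154 had 3108 and 3750 in WT, 2042 in Alkbh1-/- and 3260 in TzfpGTi/GTi. piC_1656 and piC_1657 each had -0.69 ± 0.31. The others, piC_1566, piC_28, piC_1563, piC_143 (chromosome 2), piC_2573 (chromosome 13) and piC_1497 (chromosome 19), had log2 folds between -0.43 and -0.23. The lowest edgeR adjusted p among the 10 was 0.384. These 10 held 60.9% and 63.3% of the reads of the set in WT, 48.6% in Alkbh1-/- and 60.6% in TzfpGTi/GTi.

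The set can be divided by place. The 54 clusters past the numbered ends of chromosomes 1 and 2 held 3.80% and 4.06% of cluster reads in the WT pair, 3.23% in Alkbh1-/- and 3.82% in TzfpGTi/GTi. The other 777 held 2.51% and 2.44% in WT, 3.47% in Alkbh1-/- and 2.58% in TzfpGTi/GTi. Alkbh1-/- thus lay below both WT libraries in the first part and above both in the second. Without piC_1397 and piC_2849 the second part still held 2.42% and 2.40% in WT, 2.97% in Alkbh1-/- and 2.50% in TzfpGTi/GTi. The median log2 fold in Alkbh1-/- was -0.25 over the 54, of which 32 lay below both WT libraries and 13 above. Over the 777 it was 0.035, with 265 below and 334 above. This describes 1 mutant library, with no test. The 54 include the 8 most abundant members, among them piC_28, which lies inside piC_1566. All 8 lay below both WT libraries in Alkbh1-/-. So did piC_2573 and piC_1497, which are abundant and lie among the 777. The parts of place and of abundance in these shares were therefore not told apart.

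**Figure D4:**
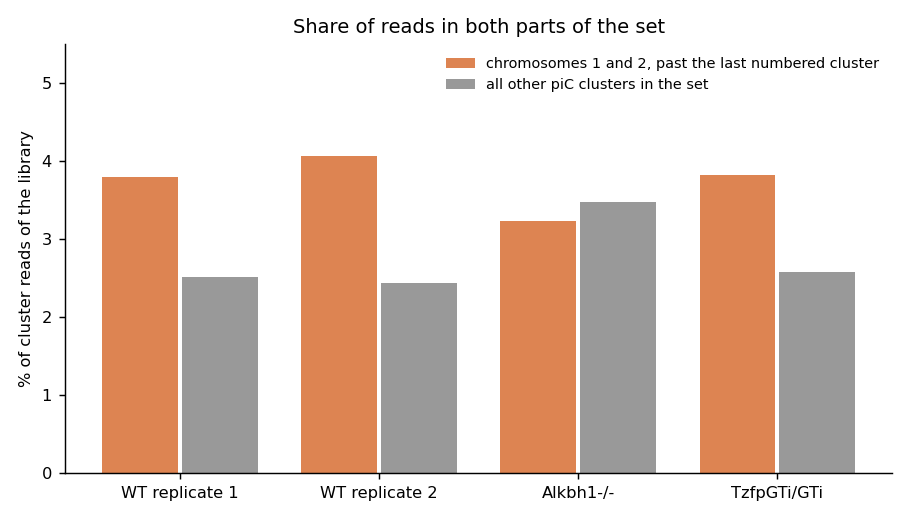
Percent of all cluster reads of each library in the 54 piC clusters past the numbered ends of chromosomes 1 and 2 (orange) and in the other 777 (grey). In Alkbh1-/- alone the grey bar, at 3.47%, is taller than the orange bar, at 3.23%.

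Across all 831 clusters the median log2 fold in Alkbh1-/- was 0.022, beside 0.0038 over all clusters tested. The Alkbh1-/- library lay above both WT libraries in 347 members (41.8%) and below both in 297 (35.7%). The background over all clusters tested was 38.2% above and 35.9% below, so the members' shares lay near it. The rule counts mutant reads, which lets in clusters that are high in a mutant. Chosen instead by 100 or more reads in the WT pair (850 clusters, 809 of them members), 329 (38.7%) lay above and 327 (38.5%) below, and the median log2 fold was -0.019. Of the 831 members chosen by the rule, 51 were above both by more than 2-fold and 28 below both. The background for those, over all clusters tested, was 5.3% and 4.84%. Against WT replicate 1 the log2 ratio of Alkbh1-/- had an SD of 0.69 and against replicate 2 one of 0.86, both above the 0.55 between the WT libraries.

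Members of some chromosomes leaned to one side in Alkbh1-/-. On chromosome 1 the median log2 fold was -0.39, and 27 of 41 members lay below both WT libraries with 7 above both. On chromosome 3 the median was -0.38, with 20 of 29 below and 4 above. Chromosomes 10 (0.39, with 33 of 55 above and 15 below) and 17 (0.33, with 37 of 56 above and 10 below) leaned the other way. Members on the remaining chromosomes with 20 or more had medians between -0.19 and 0.21. TzfpGTi/GTi, set against the same WT libraries, leaned the same way on chromosome 1 (-0.15, with 17 below and 7 above). So it did on chromosomes 10 (0.089, with 25 above and 10 below) and 17 (0.14, with 29 above and 16 below). On chromosome 3 it did not (0.0053, with 9 below and 12 above). Chromosomes were picked out after their values were seen, neighbouring clusters share reads in part, and no test was made.

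The comparison of TzfpGTi/GTi with WT addressed the clusters that change where Tzfp is disrupted. In the edgeR test 0 of the 831 clusters passed in either direction, where the background was 0.0453% of tested clusters called higher and 0.0453% lower. By unadjusted p under 0.05, 13 members (1.56%) differed, 12 higher and 1 lower, against a background of 1.86%, and DESeq2's Wald test called 0. No member lay below both WT libraries by more than 2-fold and 1 lay above both by that much. The background for those was 1.31% and 0.634%.

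Cluster piC_2119 on chromosome 7 (142414717 to 142450909) was that one. It had 136 and 166 reads in the WT pair, 124 in Alkbh1-/- and 386 in TzfpGTi/GTi, a log2 fold of 1.09 ± 0.31 (edgeR adjusted p = 1.00). The scaled CPM levels were 12.8 and 11.9 in WT and 26.3 in TzfpGTi/GTi. The highest fitted fold was that of piC_2628 (chromosome 13, 113805470 to 113830839), 1.42 ± 0.54. That cluster had 1165 and 4279 reads in the WT pair, 7923 in Alkbh1-/- and 8156 in TzfpGTi/GTi, and the WT libraries were 2.79-fold apart. Both mutant libraries lay above the WT pair there, with a log2 fold of 2.30 ± 0.53 in Alkbh1-/- (edgeR adjusted p = 0.155). Comparisons of the mutants share their WT libraries.

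Further high folds in TzfpGTi/GTi belonged to clusters of few reads. piC_2481 and piC_974 on chromosome 11 had log2 folds of 1.42 ± 0.53 and 1.23 ± 0.44. piC_2812 on chromosome 17 had 1.22 ± 0.53 and piC_2341 on chromosome 10 had 1.14 ± 0.36. In piC_2481, piC_974 and piC_2812 WT replicate 1 was the lowest library, with 33.4, 32.6 and 38.9 reads, and the WT libraries were 2.88-fold, 2.22-fold and 2.94-fold apart. Among members below both WT libraries, piC_2702 on chromosome 15 (-1.03 ± 0.35) was lowest, with 84 and 120 reads in the WT pair and 59.2 in TzfpGTi/GTi. piC_710 on chromosome 8 (-0.93 ± 0.45), piC_37 on chromosome 1 (-0.78), piC_2456 on chromosome 11 (-0.75), piC_492 on chromosome 6 (-0.73) and piC_1441 on chromosome 18 (-0.69) followed. Lower fitted folds, as in piC_86 (-1.55), piC_2122 (-1.53) and piC_2616 (-1.50), belonged to clusters in which the WT libraries disagreed and Tzfp lay between them.

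For the set as a whole, TzfpGTi/GTi stayed close to WT. The median log2 fold was 0.021, beside -0.0049 over all clusters tested. The library lay above both WT libraries in 286 members (34.4%) and below both in 210 (25.3%), where the background was 30.3% and 29.5%. Among the 850 chosen on WT reads, 269 (31.6%) lay above and 232 (27.3%) below, with a median of 0.0024. Its log2 ratio had an SD of 0.46 against WT replicate 1 and of 0.39 against replicate 2, under the 0.55 between the WT libraries. The 10 members with the most WT reads had log2 folds between -0.11 and 0.036.

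**Figure D5:**
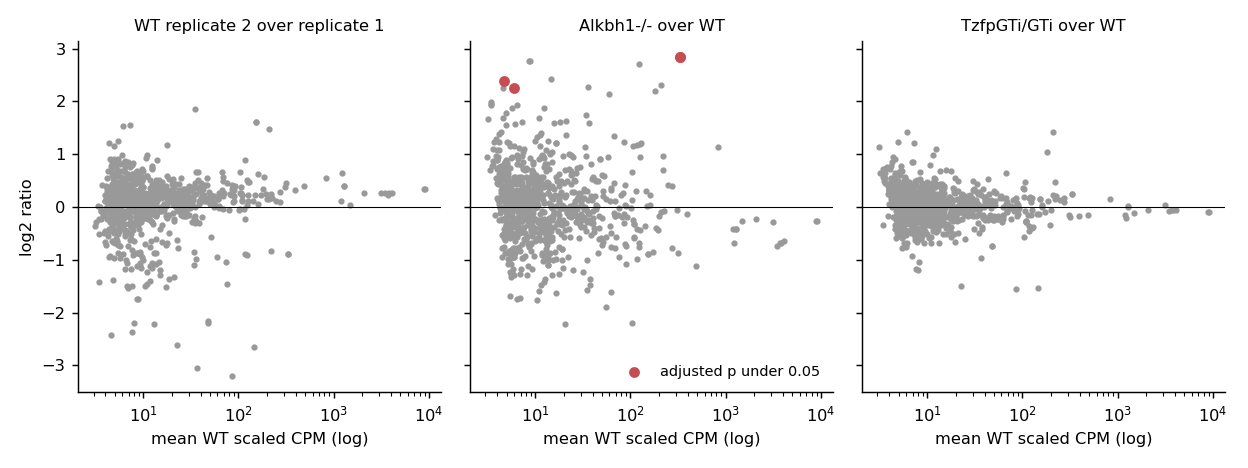
Log2 ratio of WT replicate 2 to replicate 1 (left) and fitted log2 fold of Alkbh1-/- (middle) and TzfpGTi/GTi (right) over WT for the 831 piC clusters, against the mean WT scaled CPM on a log axis. Points are clusters, and the red points are the 4 called in Alkbh1-/-, of which 2 overlap in place and values. Tzfp points lie between -1.55 and 1.42, closer to 0 than the Alkbh1-/- points (-2.21 to 2.83).

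Between the mutants, 0 members passed in the edgeR test, where the background was 0.0% of tested clusters in either direction. By unadjusted p under 0.05, 90 members (10.8%) differed, 55 higher and 35 lower in Alkbh1-/-, against a background of 8.47%. DESeq2's Wald test gave an adjusted p to 710 clusters, 573 of them members, and called 12 members, all higher in Alkbh1-/-, against a background of 2.39% higher and 0.0% lower. The highest log2 differences were those of piC_2570 (3.38) and piC_1101 (3.31), the overlapping pair on chromosome 13. There Alkbh1-/- had 451 reads in each, and TzfpGTi/GTi had 81.7 and 85.7. The lowest adjusted p of a member was 0.192.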

How the data were processed

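Small RNA under 200 nt (50 ng, 15 PCR cycles, 36 bp single-end reads) was measured in 4 libraries, per the labels. The authors deposited expected counts of reads per cluster on mm9, which need not be whole. The submitters' processing notes name Novoalign, TopHat, bedtools and CASAVA 1.3 without their roles, and the sources used here do not say how reads with several positions were divided. Depth was 7306115 to 15319520 cluster reads per library. The 2209 clusters with 40 or more summed reads, all 831 members among them, entered the test after rounding. A model with 1 term for each genotype was fitted in edgeR 4.0.16 (R 4.3.3), scaled by TMM on library totals over all clusters. Its quasi-likelihood test rested on the WT pair for its 1 residual degree of freedom, and was adjusted by Benjamini-Hochberg at 0.05. Most of its spread was drawn from the trend across clusters, with a median of 6.81 prior degrees of freedom. A standard error is the log2 fold over the root of F. The lone library of each mutant is taken to vary as WT does. DESeq2 1.42.0 was an alternative. Tables and plots used scipy 1.17.1, pandas 2.3.3, matplotlib 3.10.9 and numpy 2.4.6 under Python 3.11.15. Overlap meant at least 1 shared bp, and positions are 1-based. Named clusters were the 10 with the highest WT share, all called, up to 6 per direction furthest from WT and outside both WT libraries, the longest, shortest and densest 3, the 3 on each side of the threshold, the 5 with the largest WT ratio, and overlapping ones. Chromosomes, the part past the numbered ends and nearest neighbours were singled out after their values were seen. The members, lists and tests were chosen with earlier results of these data known. The mRNA table was not used.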

Additional observations from a re-analysis of the deposited data

How the results depend on the processing

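Calls in Alkbh1-/- depended on the processing, and the cause was not tested. Against 4 members called, 8 were called with DESeq2 size factors (7 higher, 1 lower), 17 by DESeq2's Wald test, 28 without the count filter (23 higher, 5 lower, against a background of 0.688% and 0.142%), and 6 with totals over the tested clusters (background 0.498%), an alternative chosen after seeing the data. With no scaling beyond totals, TMM from numbered clusters, overlapping clusters counted once, or only the groups compared, 0 were called, at unadjusted counts of 185, 194, 146 and 186. Between the mutants 12 were called by DESeq2's Wald test and 17 without the filter (16 higher, 1 lower, against a background of 0.506% and 0.162%). In Tzfp 0 were called in each setting with a test. With members chosen on WT reads alone the median turned from 0.022 to -0.019 in Alkbh1-/-. The median log2 fold there was 0.14 with no scaling (0.11 over all clusters tested), 0.12 with TMM from numbered clusters and -0.094 without the filter. Between the mutants it was 0.068 and -0.13 with no scaling and without the filter. Without each WT library in turn, where no test was possible, the median lay between 0.044 and 0.066 in Alkbh1-/-, -0.0016 and 0.079 in Tzfp, and -0.025 and -0.020 between the mutants. With members of 400 or more reads (486), 208 were above and 177 below both WT libraries in Alkbh1-/-, 154 and 118 in Tzfp. Their shares of cluster reads were 6.10% and 6.31% in WT, 6.47% in Alkbh1-/- and 6.19% in Tzfp. With overlaps counted once the shares were 5.32%, 5.43%, 5.53% and 5.39%. Within 1000 bp of a numbered cluster lay 2 members. All 354 recomputed folds of the 36 results for named members kept their sign. Most of these were chosen for folds far from WT in these same libraries, so a kept sign was likely from the start. In size, 9 of the 36 were rated as moved without WT replicate 1 and 8 without WT replicate 2. The adjusted p of piC_1397, piC_2849, piC_1464 and piC_2196 reached 0.298 in the least favourable setting. No paired analysis was possible because each mutant has 1 library, so the groups share fewer than 2 replicate numbers. The depth of 7306115 cluster reads in Alkbh1-/- leaves members near 200 summed reads with few reads per library.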
